A study of Mus musculus with 11 samples.

Results

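The 10 genes described here have been tied to T cell anergy, the state in which a T cell that met antigen without full costimulation stays alive but responds poorly. They were chosen by symbol, with earlier results of these data known. They are the ubiquitin ligase genes Rnf128, Cbl, Cblb and Itch, the diacylglycerol kinase genes Dgka and Dgkz, the phosphatase gene Ptpn22, the stress response gene Ndrg1, and Nrp1 and Izumo1r, which encode surface proteins. All 10 were measured, by 19 of the 28898 probe sets that carry 1 gene symbol, and they make up 10 of the 17097 genes tested. The mice were NOD males aged 16 weeks, in which the lacrimal gland (LG) becomes inflamed by autoimmunity, as in Sjögren's syndrome. Live CD4+ TCRβ+ cells of the gland were sorted into LG_naive, negative for PD-1 and ICOS, and the effector subsets LG_eTconv (conventional) and LG_eTreg (regulatory), both high for PD-1 and ICOS, with 3 arrays each. Spleen CD4 T cells (Spl_CD4) and CD8 T cells (Spl_CD8) were measured on 1 array each and allow no test. The series' design states the same gate, low for CD73 and CD200, for both effector subsets. No label ties a replicate to its own mouse or to a pool, so the spread behind the p-values is that of these arrays alone and could be technical.

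Ligases such as GRAIL (the Rnf128 protein), CBL-B and ITCH attach ubiquitin to receptors and signalling proteins below the T cell receptor, which removes or reroutes them. Diacylglycerol kinases convert the messenger diacylglycerol to phosphatidic acid and so limit Ras and protein kinase C theta, while the phosphatase PTPN22 takes phosphate off Src family and ZAP-70 kinases. Neuropilin 1 (Nrp1) is a receptor for semaphorins and VEGF found on many regulatory T cells, and folate receptor 4 (Izumo1r) marks regulatory T cells and, together with CD73, anergic CD4 T cells.

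Levels are RMA signals on a log2 scale, and differences are the first-named group's mean minus the other's, with a standard error (SE) from limma. Genes with an adjusted p (Benjamini-Hochberg, all 17097 genes) under 0.05 count as called. Each array's background limit, from 0.945 to 1.70, is the signal of its brightest nonspecific control probe set. The genes above it numbered 9483 to 11211 per array, and the number of arrays limits the precision. Foxp3, which defines regulatory T cells, stood at 8.18 ± 0.05 (SD, n = 3) in LG_eTreg, 4.24 ± 0.62 in LG_eTconv and 3.95 ± 1.04 in LG_naive. Of 9 listed T cell markers 8 were measured, and all 8 lay above background on every array. The 18S RNA control signal was highest on LG_eTreg 3 (6.69) and LG_naive 1 (6.63), against 4.34 to 5.69 on the others, and LG_eTconv 1 had the widest gap (3.35) from 3′ to 5′ actin controls. Results were therefore also computed without these 3 arrays.

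Among the 10 genes, the LG_eTconv arrays had higher Rnf128, Nrp1, Izumo1r, Dgkz and Ptpn22 and lower Cbl than LG_naive. In LG_eTreg, Rnf128, Nrp1, Izumo1r and Ptpn22 were higher and Dgka was lower than in LG_naive. That is 6 of 10 genes called in LG_eTconv minus LG_naive, where 13.5% of all genes were called, and 5 of 10 in LG_eTreg minus LG_naive, where 11.7% were. Between LG_eTreg and LG_eTconv 2 of 10 were called, Rnf128 (lower in LG_eTreg) and Cbl (higher), beside 5.7% of all genes. Median differences over the 10 genes were 0.48, 0.40 and 0.23 in the 3 comparisons, beside −0.03, −0.02 and 0.01 over all genes. The 3 comparisons share groups and are not independent of each other. Members and the lists below were chosen with earlier results of these data known, so no count here or below tests a set of genes.

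**Figure D1:**
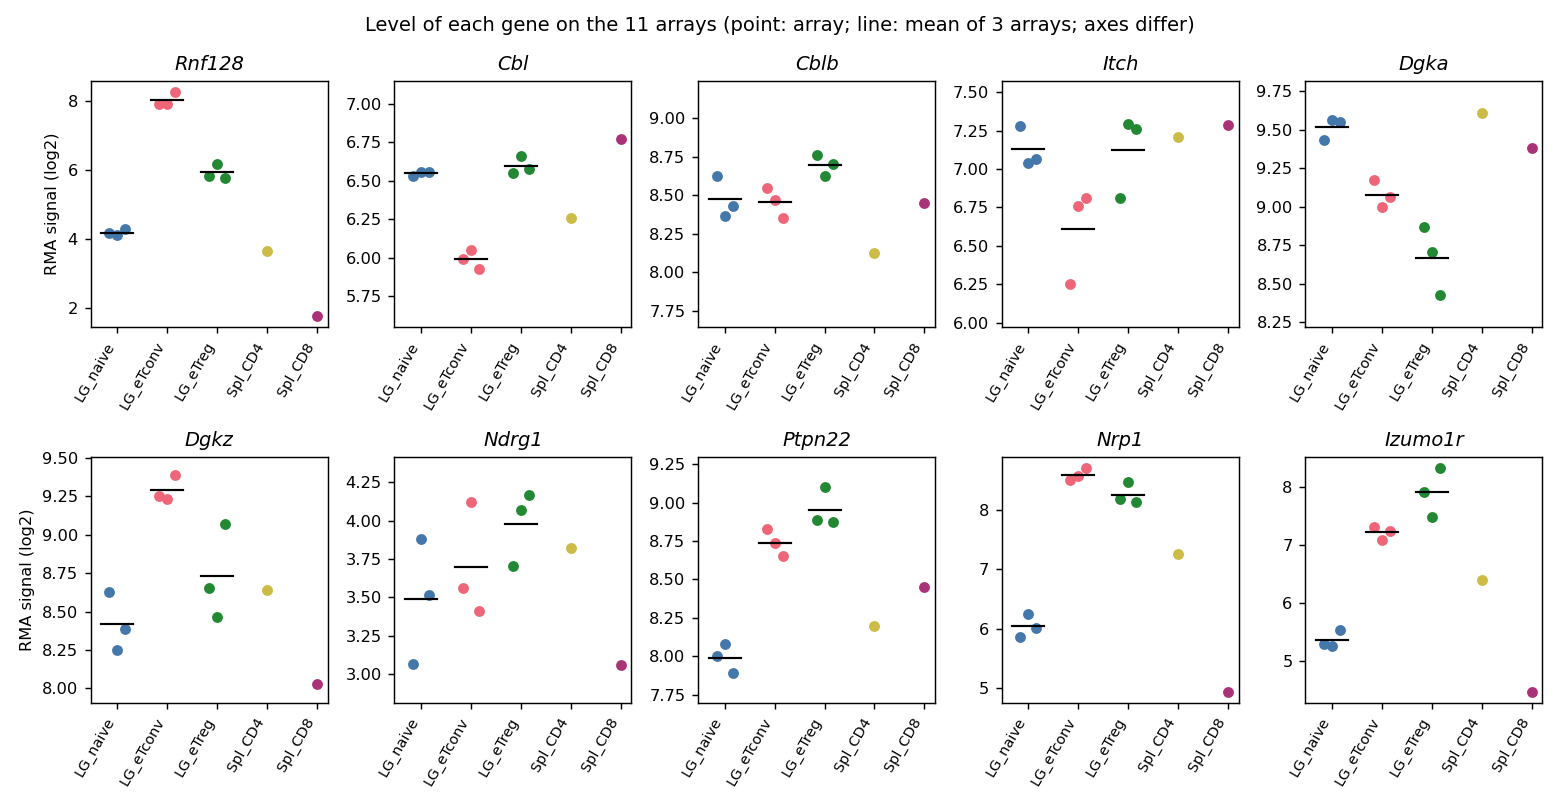
Level of the 10 genes on each of the 11 arrays (y axis: RMA signal, log2, with a separate range in each panel; x axis: group; each point is 1 array and lines are means of 3 arrays). Rnf128 runs from 1.77 in Spl_CD8 to 8.26 on an LG_eTconv array, while Cblb stays between 8.12 and 8.76 on all arrays.

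**Figure D2:**
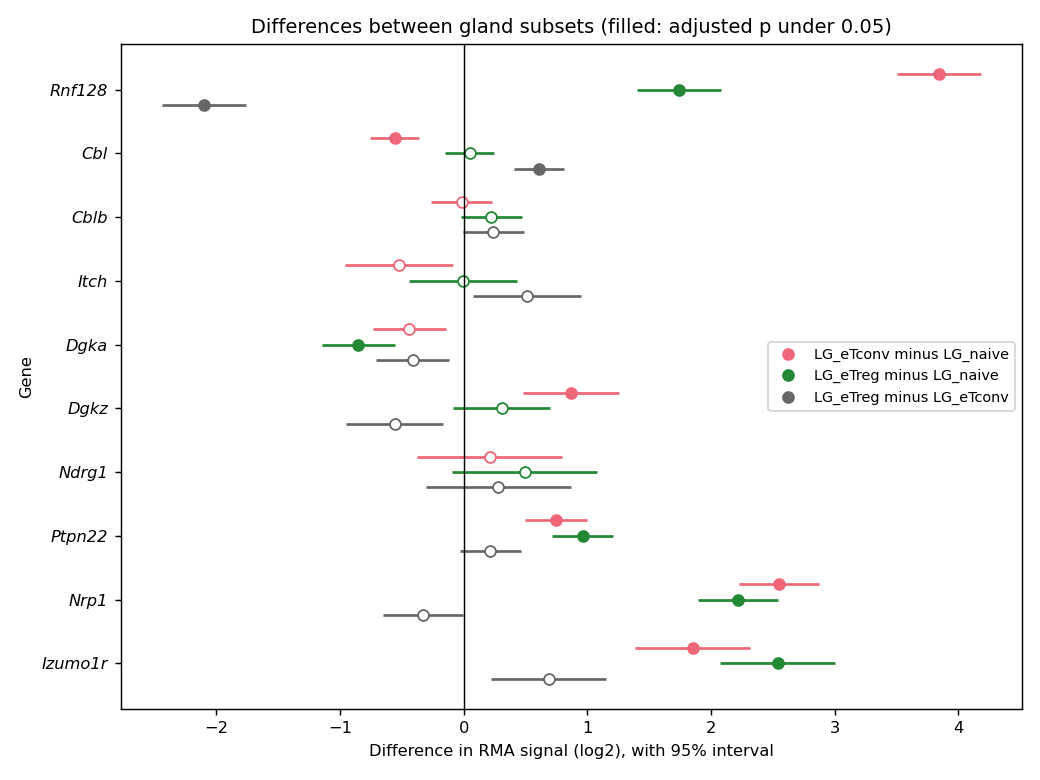
Differences between the gland subsets for the 10 genes (x axis: difference in RMA signal, log2; points are estimates, bars are 95% intervals from limma, filled points have an adjusted p under 0.05). Rnf128 has the widest gap, with 3.85 in LG_eTconv minus LG_naive and −2.10 in LG_eTreg minus LG_eTconv.

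Sequences before a transcription start of Rnf128, Nrp1 and Izumo1r are shown. These were the 3 members with the widest range of gland group means (3.85, 2.55 and 2.54), and all of them were higher in both effector subsets. Each is the 250 bases before a transcription start in RefSeq (GRCm38.p6), 5′ to 3′ on the gene's strand, and 8 of the 10 genes were matched in that table. The annotated spans of Rnf128 and Nrp1 begin at 139563340 and 128358591, and that of Izumo1r ends at 14903951. All 3 starts therefore lie inside the annotated gene, and the windows of Rnf128 and Nrp1 lie wholly inside it. Capitals mark matches on either strand to the NFAT core GGAAA or the Egr core GTGGGCG.

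Rnf128, chrX:139610370-139610619, plus strand: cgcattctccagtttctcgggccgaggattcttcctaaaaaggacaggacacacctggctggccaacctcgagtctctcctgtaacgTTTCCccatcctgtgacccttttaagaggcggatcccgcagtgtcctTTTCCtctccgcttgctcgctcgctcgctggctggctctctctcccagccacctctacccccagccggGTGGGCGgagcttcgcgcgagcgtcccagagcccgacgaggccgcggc

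Nrp1, chr8:128358823-128359072, plus strand: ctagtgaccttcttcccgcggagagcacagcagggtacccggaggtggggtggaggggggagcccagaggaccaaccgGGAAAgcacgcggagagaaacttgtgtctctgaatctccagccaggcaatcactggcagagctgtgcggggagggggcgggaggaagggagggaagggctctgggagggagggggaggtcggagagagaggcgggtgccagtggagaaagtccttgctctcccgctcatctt

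Izumo1r, chr9:14903768-14904017, minus strand: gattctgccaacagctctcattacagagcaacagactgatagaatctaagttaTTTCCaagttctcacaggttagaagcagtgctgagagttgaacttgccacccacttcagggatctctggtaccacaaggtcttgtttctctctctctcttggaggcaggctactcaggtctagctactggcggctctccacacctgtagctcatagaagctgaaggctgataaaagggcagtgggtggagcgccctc

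The NFAT core occurred 2 times in the Rnf128 window and 1 time each in those of Nrp1 and Izumo1r. Of all 32851 promoter windows of this length, 55.6% held at least 1 match. The Egr core occurred 1 time, in the Rnf128 window, and 7.02% of all windows held it. The AP-1 motif TGANTCA and the forkhead motif TGTTTAC, present in 6.75% and 3.17% of all windows, had no match in these 3 windows. The members shown were picked by their values, and other members held matches too. Cbl, lower in LG_eTconv, had 3 NFAT matches and 1 Egr match, and Cblb, not called in any comparison, had 2 NFAT matches. Windows of Dgka had 0 to 2 NFAT matches, those of Ptpn22 0 or 1, and those of Dgkz 0 or 1 of NFAT and of Egr. A match is a stretch of letters, not a measured binding site, and no marked matches overlap within a window.

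Rnf128 encodes GRAIL, a membrane-bound ubiquitin ligase induced in anergic CD4 T cells. Its level was 4.17, 4.11 and 4.30 on the LG_naive arrays, 7.93, 7.92 and 8.26 on the LG_eTconv arrays and 5.83, 6.19 and 5.78 on the LG_eTreg arrays. The 3 groups did not overlap, with LG_eTconv highest and LG_eTreg between the other two. LG_eTconv exceeded LG_naive by 3.85 (SE 0.15, adjusted p = 1.77e-06), or 14.4-fold, and LG_eTreg exceeded LG_naive by 1.74 (SE 0.15, adjusted p = 0.000125), or 3.35-fold. LG_eTreg was 4.30-fold lower than LG_eTconv (difference −2.10, adjusted p = 8.33e-05). By size of difference Rnf128 ranked 128 of 17097 genes in LG_eTconv minus LG_naive and 232 in LG_eTreg minus LG_eTconv.

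The other probe set of Rnf128, above background on 7 of 11 arrays, gave 1.07, 1.59 and 0.83 in LG_naive, 4.16, 4.66 and 5.27 in LG_eTconv and 1.56, 1.79 and 1.64 in LG_eTreg. It also placed LG_eTconv above both other groups, with differences of 3.53 for LG_eTconv minus LG_naive and −3.03 for LG_eTreg minus LG_eTconv. Its LG_eTreg minus LG_naive difference was 0.50 (SE 0.29, adjusted p = 0.403 over all probe sets), and those arrays overlapped. The rise of Rnf128 in LG_eTreg was therefore called on 1 of its 2 probe sets, and the mean of both gave 1.12.

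Cbl encodes c-CBL, a RING ligase that acts on activated tyrosine kinases. On the LG_naive arrays it stood at 6.53, 6.55 and 6.56, on LG_eTconv at 5.99, 6.05 and 5.92, and on LG_eTreg at 6.55, 6.66 and 6.57. The LG_eTconv arrays lay below all others of the gland, while LG_naive and LG_eTreg overlapped. The differences were −0.56 in LG_eTconv minus LG_naive (SE 0.09, adjusted p = 0.00321), 0.61 in LG_eTreg minus LG_eTconv (adjusted p = 0.0044) and 0.05 in LG_eTreg minus LG_naive (adjusted p = 0.831). Averaging its 3 probe sets, the first comparison gave a difference of −0.70 with an adjusted p of 0.0708 and LG_eTreg minus LG_eTconv one of 0.36 with 0.501. Without LG_naive 1, LG_eTconv 1 and LG_eTreg 3 the latter difference was 0.62 with an adjusted p of 0.0613. On its second probe set Cbl ran from 5.68 to 6.13 in LG_eTconv and from 6.07 to 6.59 in LG_naive, and the groups overlapped. The third was above background on 9 of 11 arrays and was not called.

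Cblb encodes CBL-B, the ligase that sets the need for CD28 costimulation. It stood at 8.63, 8.37 and 8.43 in LG_naive, 8.55, 8.47 and 8.35 in LG_eTconv and 8.76, 8.62 and 8.70 in LG_eTreg. LG_eTreg arrays lay above the LG_eTconv arrays by a mean of 0.24 (95% interval −0.01 to 0.49, adjusted p = 0.327), and LG_eTconv minus LG_naive was −0.02 (−0.26 to 0.23, adjusted p = 0.96). Itch, a HECT-type ligase that acts on JUNB and phospholipase C gamma, was at 7.28, 7.04 and 7.07 in LG_naive, 6.25, 6.76 and 6.81 in LG_eTconv and 6.81, 7.29 and 7.26 in LG_eTreg. The other probe set of Cblb averaged 6.32, 6.18 and 6.49 in the 3 groups and was not called in any comparison. All 3 LG_eTconv arrays of Itch were below the 3 LG_naive arrays, with LG_eTconv 1 the lowest, and the difference of −0.52 (SE 0.19, adjusted p = 0.124) was not called and was −0.34 without LG_eTconv 1. The other 2 probe sets of Itch lay near background, with values from −0.24 to 2.37.

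Dgka and Dgkz encode the alpha and zeta diacylglycerol kinases, both abundant in T cells. Dgka stood at 9.44, 9.56 and 9.55 in LG_naive, 9.17, 9.0 and 9.06 in LG_eTconv and 8.87, 8.70 and 8.43 in LG_eTreg, so that the 3 groups did not overlap. It was 1.81-fold lower in LG_eTreg than in LG_naive (difference −0.85, SE 0.13, adjusted p = 0.00313). The LG_eTconv minus LG_naive difference of −0.44 had an adjusted p of 0.0598, and 5 of 20 other settings called it, with 0.0206 as the smallest adjusted p. Dgkz went the other way in LG_eTconv, at 9.25, 9.23 and 9.39 against 8.63, 8.25 and 8.39 in LG_naive and 8.65, 8.47 and 9.07 in LG_eTreg. It was 1.82-fold higher in LG_eTconv than in LG_naive (difference 0.87, SE 0.17, adjusted p = 0.0104; with its probe sets averaged, 0.0897). The other probe set gave 0.89 with overlapping arrays (adjusted p = 0.307 over all probe sets). LG_eTreg minus LG_eTconv was −0.56 (adjusted p = 0.123, or 0.0332 without LG_eTreg 3), and LG_eTreg minus LG_naive was 0.31 (adjusted p = 0.346).

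Ptpn22, whose phosphatase restrains T cell receptor signalling and whose human gene carries autoimmune risk alleles, was higher in both effector subsets. Its levels were 8.00, 8.08 and 7.89 in LG_naive, 8.83, 8.74 and 8.65 in LG_eTconv and 8.89, 9.10 and 8.87 in LG_eTreg. Both effector subsets lay above LG_naive without overlap, by 0.75 in LG_eTconv (SE 0.11, adjusted p = 0.00211) and 0.96 in LG_eTreg (adjusted p = 0.000611), or 1.68-fold and 1.95-fold. LG_eTreg minus LG_eTconv was 0.22 (adjusted p = 0.395).

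Ndrg1, a cytoplasmic protein induced by hypoxia and by metal shortage and reported as an anergy factor, was above background on all 11 arrays on its only probe set. It gave 3.06, 3.88 and 3.52 in LG_naive, 3.56, 4.12 and 3.41 in LG_eTconv and 3.71, 4.07 and 4.17 in LG_eTreg. The arrays of all 3 groups overlapped. The differences from LG_naive were 0.21 (95% interval −0.38 to 0.80, adjusted p = 0.703) in LG_eTconv and 0.49 (−0.09 to 1.08, adjusted p = 0.311) in LG_eTreg.

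Nrp1 was measured by 3 probe sets, and all of them placed both effector subsets above LG_naive. On the probe set with the highest mean it stood at 5.86, 6.25 and 6.01 in LG_naive, 8.50, 8.56 and 8.71 in LG_eTconv and 8.18, 8.47 and 8.13 in LG_eTreg. All LG_eTconv arrays lay above all LG_eTreg arrays, with a difference between the effector subsets of −0.33 (95% interval −0.65 to −0.01, adjusted p = 0.296). Against LG_naive the differences were 2.55 in LG_eTconv (SE 0.14, adjusted p = 9.70e-06) and 2.22 in LG_eTreg (adjusted p = 2.83e-05), or 5.86-fold and 4.66-fold. The other 2 probe sets gave 3.56 and 4.10 in LG_eTconv, and 3.01 and 2.62 in LG_eTreg.

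The size of the Nrp1 gap between the effector subsets depended on the probe set. One of the other probe sets gave 7.22, 7.0 and 6.8 in LG_eTconv and 6.10, 5.59 and 4.88 in LG_eTreg, against 2.46, 2.73 and 3.53 in LG_naive. Its LG_eTreg minus LG_eTconv difference was −1.48 (SE 0.35, adjusted p = 0.0613 over all probe sets), and the third gave −0.55 (adjusted p = 0.292). On each of the 3 probe sets the LG_eTreg arrays lay below the LG_eTconv arrays without overlap.

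Izumo1r stood at 5.30, 5.27 and 5.53 in LG_naive, 7.32, 7.09 and 7.25 in LG_eTconv and 7.91, 7.48 and 8.33 in LG_eTreg, on its only probe set. The 3 groups did not overlap, and LG_eTreg was highest. LG_eTconv exceeded LG_naive by 1.85 (SE 0.20, adjusted p = 0.000437) and LG_eTreg by 2.54 (adjusted p = 9.14e-05), or 3.61-fold and 5.81-fold. LG_eTreg exceeded LG_eTconv by 0.69 (95% interval 0.22 to 1.15, adjusted p = 0.108, or 0.0247 without LG_eTreg 2). Nt5e, which encodes CD73, a protein of the sort gate, exceeded its LG_naive level too, by 4.35 in LG_eTconv and 3.42 in LG_eTreg (2.42 and 1.73 with its probe sets averaged). It was lower in LG_eTreg than in LG_eTconv (difference −0.93, adjusted p = 0.0462, with a range of 0.00612 to 0.142 over the alternatives), as was Cd200, the other gene of the gate stated as low (−1.10, adjusted p = 0.00222). Both encode proteins that the effector cells were sorted on, so these p-values are no independent test.

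**Figure D3:**
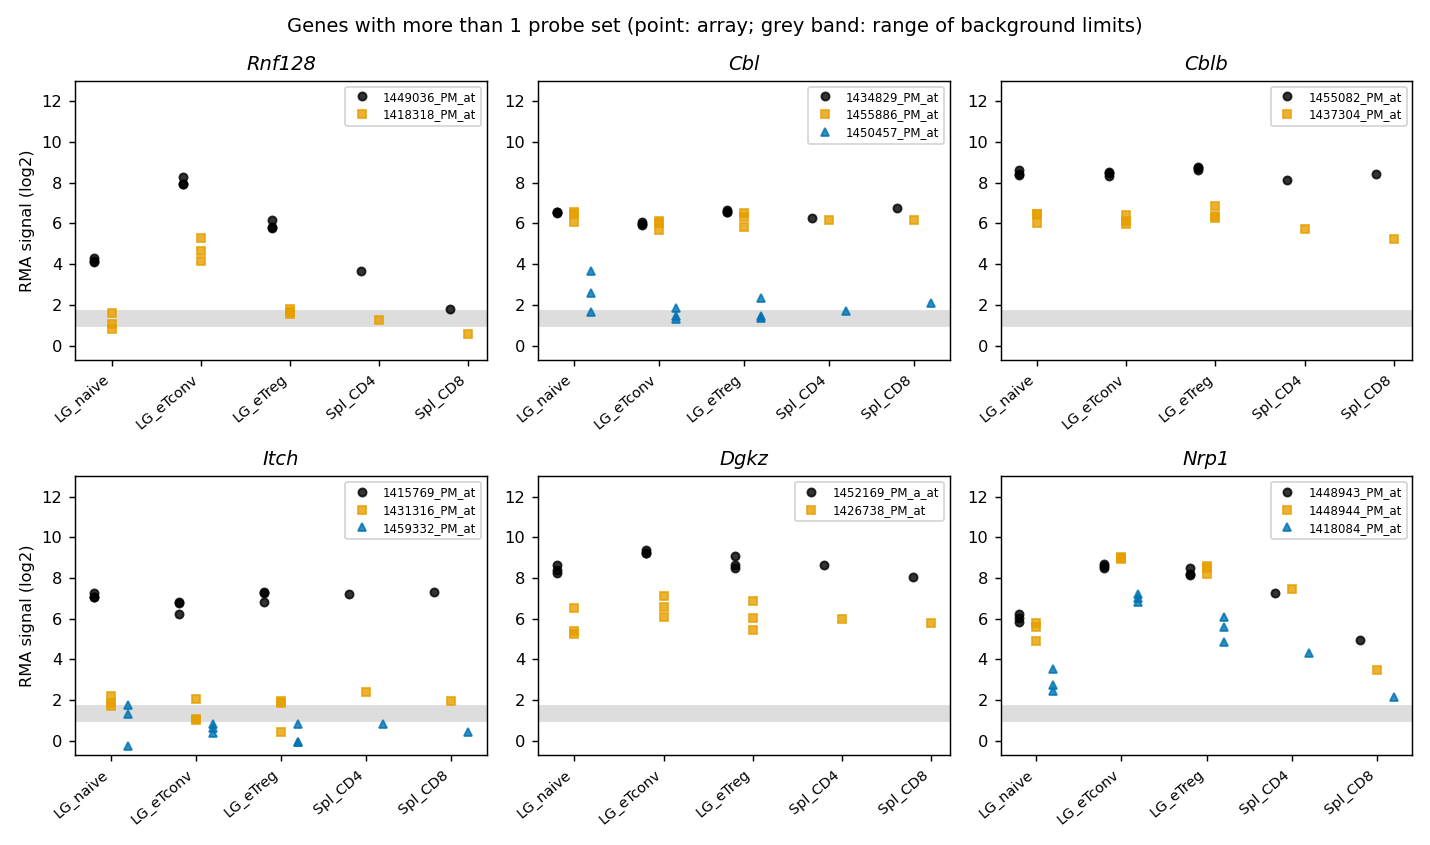
All probe sets of the 6 genes with more than 1 (y axis: RMA signal, log2; x axis: group; each point is 1 array, symbols mark probe sets, the grey band spans the background limits of the arrays, 0.945 to 1.70). Both probe sets of Rnf128 and all 3 of Nrp1 are highest in LG_eTconv, while the other 2 probe sets of Itch lie between −0.24 and 2.37, in or near the band.

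Groups did not overlap for 8 of 10 genes in LG_eTconv minus LG_naive, 5 in LG_eTreg minus LG_naive and 8 in LG_eTreg minus LG_eTconv. Over all genes those shares were 31.1%, 27.1% and 21.5%. Of the 19 probe sets 9, 7 and 3 were called, beside 11.1%, 9.14% and 4.32% of all 28898 probe sets.

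Markers of other cells also differed between LG_naive and the effector subsets, most often among monocyte and dendritic cell markers. The summed linear signal of 9 monocyte and macrophage markers was 446 to 649 in LG_naive, 104 to 136 in LG_eTconv and 117 to 127 in LG_eTreg, with 6 of 9 called lower in each subset. Over all genes 7.02% were lower and 6.45% higher in LG_eTconv, and 5.47% and 6.2% in LG_eTreg. Csf1r and Itgam, defining markers of monocytes and macrophages, were at background on all gland arrays, while Tyrobp stood at 8.07 and Cd68 at 5.83 in LG_naive. For 8 dendritic cell markers the sums were 530 to 581, 95.3 to 111 and 88.9 to 122, with 6 of 8 lower in each subset and 1 higher in LG_eTreg. Xcr1 was at background on all gland arrays, while Klra17 stood at 8.08 and H2-Aa at 7.44 in LG_naive. Epithelial markers were lower in 4 of 10 (LG_eTconv) and 2 of 10 (LG_eTreg), with sums of 324 to 733 in LG_naive, 74.3 to 108 and 163 to 296, and Cldn3 and Cldn4 at background. Fibroblast, endothelial and erythrocyte markers were lower in 2 and 3 of 10, with sums of 79.3 to 96.0, 36.2 to 63.7 and 25.2 to 42.0, and B cell markers were lower in 4 of 7 in LG_eTreg (limma called 0 of 7 in LG_eTconv, where 1 had an unadjusted p under 0.05), with sums of 289 to 363 in LG_naive, 148 to 248 in LG_eTconv and 80.0 to 156 in LG_eTreg. T cell markers were higher in 3 of 8 in LG_eTconv and 4 of 8 in LG_eTreg, with sums of 2780 to 2820 in LG_naive, 3030 to 3391 and 3389 to 3780, and median differences of 0.27 and 0.44. CD8 T and natural killer cell markers had 2 of 8 higher and 2 lower in LG_eTconv and 1 and 1 in LG_eTreg, with sums of 188 to 195, 137 to 167 and 83.1 to 95.3. Among them Cd8a was higher in LG_eTconv (6.48) than in LG_naive (4.92), with a difference of 1.56 (adjusted p = 0.00161). Cd8a was at 5.17 in LG_eTreg (LG_eTreg minus LG_eTconv −1.31, adjusted p = 0.00858). Klrd1 was lower than in LG_naive in both subsets (differences −2.47 and −3.56). Ncr1, Pax5, Col1a2 and Pdgfra, defining markers of natural killer cells, B cells and fibroblasts, were at background on all gland arrays. Other markers of these lists were not, with Klrd1 at 6.81, Jchain at 8.07 and Pecam1 at 5.15 in LG_naive. Between the effector subsets, 1 monocyte and 2 epithelial markers were higher in LG_eTreg, and 1 marker each of dendritic cells, CD8 T or natural killer cells, and fibroblasts, endothelium or erythrocytes was lower. Of all genes 2.94% were higher and 2.76% lower there. Nrp1 is also known from endothelial and some myeloid cells. The part of these cells in the differences of the 10 genes was not tested. Nor was it tested for the other genes named below, such as Nedd4l, Nedd4 and Sema4a. In bulk samples fewer cells of a type and less RNA per cell cannot be told apart.

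Beyond Rnf128, Cbl, Cblb and Itch, a list of 23 other ubiquitin ligases and adaptors of T cells went both ways. In LG_eTconv 2 of 23 were higher and 5 lower than in LG_naive (background: 6.45% of all genes higher and 7.02% lower), with a median difference of −0.11. In LG_eTreg 5 were higher and 4 lower (6.2% and 5.47% of all genes), with a median of −0.04. Nedd4l, a HECT ligase of the NEDD4 family, stood at 5.46 ± 0.15 in LG_naive and was at or below background on all effector arrays, which makes it at least 17.4-fold lower in LG_eTconv and at least 18.9-fold lower in LG_eTreg. With the probe sets of Nedd4l averaged the differences were −1.40 and −1.44, both still called. Dtx1, the Notch-linked ligase Deltex 1 that has been described as an anergy gene, fell from 6.19 ± 0.08 in LG_naive to 3.89 ± 0.55 in LG_eTconv (difference −2.30, adjusted p = 0.000844) and 2.58 ± 0.38 in LG_eTreg (−3.60, adjusted p = 8.41e-05). Averaged over its probe sets, Dtx1 had a difference of −1.91 in LG_eTreg and −1.84 in LG_eTconv, both called.

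Ubash3b, which encodes the phosphatase STS-1 that binds ubiquitin and CBL, was higher by 1.73 in LG_eTconv (adjusted p = 0.000296) and 2.01 in LG_eTreg (adjusted p = 0.000148). Ndfip1, an adaptor that activates ITCH and NEDD4 ligases, was higher by 0.86 and 0.99 (adjusted p = 0.000661 and 0.000351). Larger differences went the other way. Nedd4 had −2.78 in LG_eTconv (adjusted p = 0.00423) and −1.44 in LG_eTreg (adjusted p = 0.0914, not called). Smurf1 was lower in both (differences −1.19 and −1.33, adjusted p = 0.00323 and 0.00211). Between the effector subsets 2 of 23 were higher in LG_eTreg and 1 lower (2.94% and 2.76% of all genes), among them Peli1, a ligase that restrains T cell activation, by 0.95 (adjusted p = 0.000563). Of 10 deubiquitinases, Otud7b was higher by 1.73 in LG_eTconv and 1.13 in LG_eTreg (0.71 with its probe sets averaged), and the interferon-induced Usp18 was lower by 1.11 in LG_eTconv than in LG_naive (difference −1.11, adjusted p = 0.00874) and higher in LG_eTreg than in LG_eTconv by 1.61. Their median differences from LG_naive were −0.19 and 0.01.

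**Figure D4:**
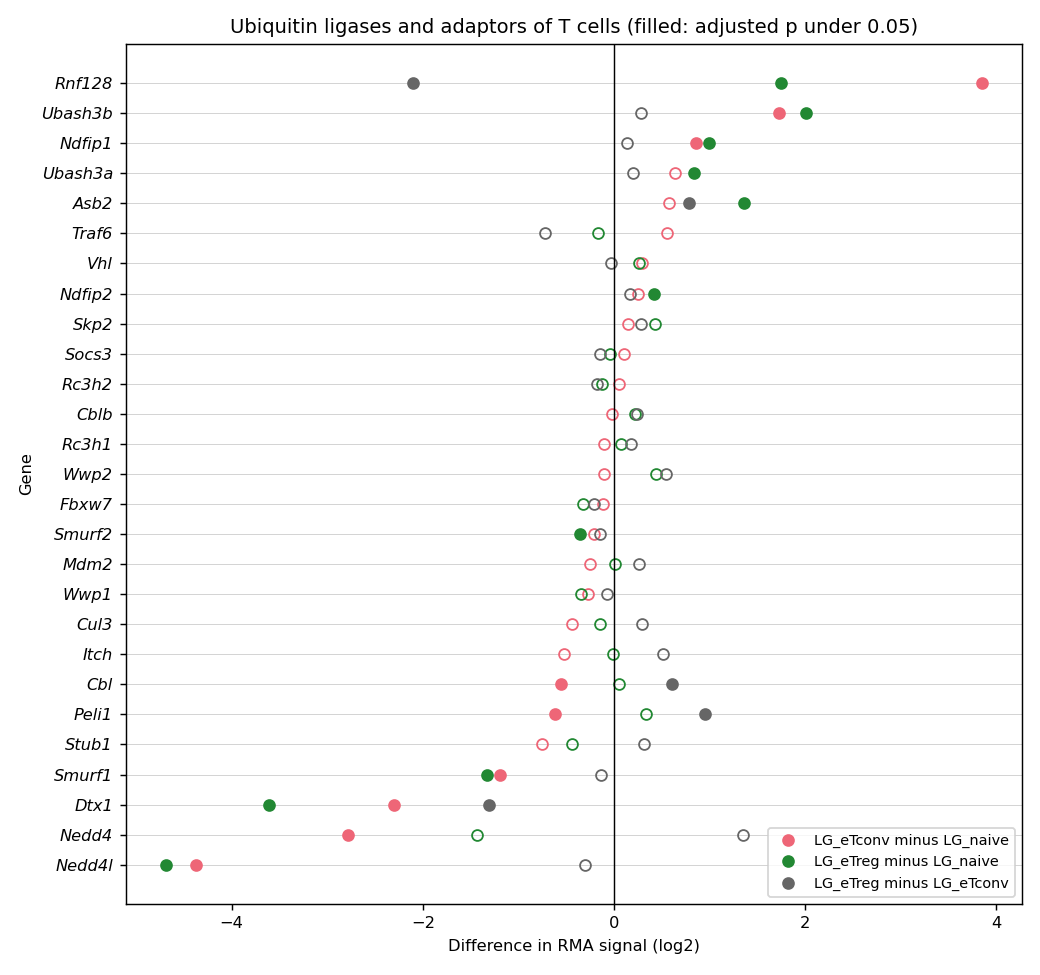
Differences of the 27 listed ubiquitin ligases and adaptors, the 4 members included (x axis: difference in RMA signal, log2; y axis: genes ordered by LG_eTconv minus LG_naive; filled points have an adjusted p under 0.05). Rnf128 lies at the upper end with 3.85 and Nedd4l at the lower end with −4.38, a fitted value that rests on effector arrays at background.

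Diacylglycerol signalling genes other than Dgka and Dgkz had 2 of 8 higher and 2 lower in LG_eTconv, beside 6.45% and 7.02% of all genes. They had 1 higher and 1 lower in LG_eTreg, beside 6.2% and 5.47%, a count near the background, with median differences of −0.28 and −0.21. Dgkh, the eta kinase, was higher by 1.83 in LG_eTconv (adjusted p = 0.00197) and 1.99 in LG_eTreg (adjusted p = 0.00146). Dgki, the iota kinase, was at background on all LG_naive arrays and at 3.67 ± 0.34 in LG_eTconv, at least 4.68-fold higher, while 1 of 3 LG_eTreg arrays was above background (LG_eTreg minus LG_eTconv −2.73, adjusted p = 0.000138). Prkcq, protein kinase C theta, which diacylglycerol activates and which several of the ligases target, was lower than in LG_naive by 0.61 in LG_eTconv (difference −0.61, adjusted p = 0.00578, or 0.0503 without LG_naive 1, LG_eTconv 1 and LG_eTreg 3) and by 1.40 in LG_eTreg (difference −1.40, adjusted p = 7.23e-05).

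Among 15 measured genes of the NFAT and Egr programme of anergy, 6 were higher and 2 lower in LG_eTconv, beside 6.45% and 7.02% of all genes. In LG_eTreg 5 were higher and 1 lower, beside 6.2% and 5.47%, with medians of 0.25 and 0.21. Nfatc1, the NFAT factor induced by activation, was higher by 2.33 (adjusted p = 0.000308) and 1.94 (adjusted p = 0.00103), and the inhibitory receptor gene Lag3 by 3.75 and 4.04. Nr4a2, a nuclear receptor induced by antigen, was higher by 1.64 and 1.63. Egr1, Egr2 and Egr3, the immediate early factors of the programme, are named after their values were seen. Egr1 was lower in LG_eTconv than in LG_naive (difference −0.54, adjusted p = 0.00704, or 0.0706 without LG_naive 1, LG_eTconv 1 and LG_eTreg 3). In LG_eTreg minus LG_eTconv, Egr1 was higher by 0.51 (adjusted p = 0.0196), and 6 of 20 other settings did not call it. Egr2 had a difference of 0.39 (adjusted p = 0.0715) in LG_eTconv minus LG_naive and Egr3 one of 0.12 (adjusted p = 0.769). Neither was called, but 5 of 20 other settings called Egr2, with 0.0136 as the smallest adjusted p. Btla, an inhibitory receptor gene, was lower in LG_eTreg than in LG_eTconv by 1.52 (difference −1.52, adjusted p = 0.000208).

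Beside Ptpn22, 14 other phosphatases and adaptors that restrain T cell receptor signalling had 4 higher and 1 lower in LG_eTconv, beside 6.45% and 7.02% of all genes. They had 6 higher and 1 lower in LG_eTreg, beside 6.2% and 5.47%, with medians of 0.12 and 0.52. Ptpn11, which encodes SHP-2, exceeded LG_naive by 1.63 in LG_eTconv (adjusted p = 2.40e-05) and lower in LG_eTreg than in LG_eTconv (difference −1.12, adjusted p = 0.000468). Lax1, a membrane adaptor, was higher by 1.09 and 1.13. Pag1, the adaptor that brings the inhibitory kinase CSK to the membrane, was lower in both, with differences of −1.70 (adjusted p = 2.42e-05) and −0.89 (adjusted p = 0.00109).

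Of 16 other neuropilin, plexin and semaphorin genes 2 were higher and 5 lower in LG_eTconv, beside 6.45% and 7.02% of all genes. In LG_eTreg 2 were higher and 3 lower, beside 6.2% and 5.47%. Sema4a, a semaphorin that has been described as a ligand of neuropilin 1 on regulatory T cells, was lower by 3.18 in LG_eTconv (difference −3.18, adjusted p = 1.96e-05) and by 2.90 in LG_eTreg (difference −2.90, adjusted p = 4.61e-05). Sema4c was higher by 2.93 and 1.38, and lower in LG_eTreg than in LG_eTconv (difference −1.55, adjusted p = 0.00168). In the NDRG family, Ndrg3 was lower by 2.17 and 1.82 (differences −2.17 and −1.82, adjusted p = 0.000136 and 0.000448). Ndrg4 stood at 5.24 ± 0.37 in LG_eTreg, 2.50 ± 0.59 in LG_eTconv and 0.88 ± 0.58 in LG_naive, with 1 LG_naive array of 3 above background (LG_eTreg minus LG_eTconv 2.74, adjusted p = 0.00324). Folr1 and Folr2, relatives of Izumo1r, stood at 1.27 ± 0.04 and 0.39 ± 0.28 in LG_naive, near or below background.

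Of 12 measured substrates of the ligases 1 was higher and 3 lower in each effector subset, beside 6.45% and 7.02% of all genes in LG_eTconv and 6.2% and 5.47% in LG_eTreg, with medians of −0.15 and −0.20. Cd40lg, the CD40 ligand gene whose protein GRAIL targets, was at 4.94 ± 0.55 in LG_naive, 4.82 ± 0.18 in LG_eTconv and 2.69 ± 0.44 in LG_eTreg (LG_eTreg minus LG_eTconv −2.12, adjusted p = 0.00407). Pik3r1, a phosphoinositide 3-kinase subunit bound by CBL-B, was lower in LG_eTconv than in LG_naive (difference −1.14, adjusted p = 0.00173) and higher in LG_eTreg than in LG_eTconv by 1.0 (adjusted p = 0.00736).

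In the spleen, with 1 array per cell type and no test, Nrp1 and Izumo1r were at least 2-fold higher in Spl_CD4 than in LG_naive and beyond all 3 LG_naive arrays. In either direction 9.24% of all genes met this size and position. Nrp1 was at 7.26 in Spl_CD4, 1.22 above the LG_naive mean (difference from LG_eTconv −1.33). Izumo1r was at 6.40, 1.04 above LG_naive. Both thus lay between LG_naive and the effector subsets. Rnf128 was at 3.65 in Spl_CD4, with a difference of −0.55 from the LG_naive mean.

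Spl_CD8 had the lowest level of Rnf128 (1.77), Nrp1 (4.94) and Izumo1r (4.48) of all 11 arrays, on every probe set of these genes. Rnf128 and Nrp1 were at least 2-fold below LG_naive there (differences −2.42 and −1.10), a size and position that 11.5% of all genes reached in either direction. Between the spleen arrays, Nrp1, Izumo1r and Rnf128 were higher in Spl_CD4 by 2.32, 1.92 and 1.87, and 8.25% of all genes differed at least 2-fold. The sum of 8 CD8 T and natural killer cell markers was 1401 in Spl_CD8 and 155 in Spl_CD4. Cbl stood at 6.26 in Spl_CD4 and 6.77 in Spl_CD8, Cblb at 8.12 and 8.45, and Dgkz at 8.64 and 8.03, and their other probe sets ordered the 11 arrays differently.

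The genes with profiles nearest to those of Rnf128, Nrp1 and Izumo1r were found by the root mean square (RMS) difference over the 11 arrays after each gene was centred on its own mean. For Rnf128 they were Csf1, the macrophage colony-stimulating factor gene (RMS 0.493), Tnfsf11, the RANK ligand gene (0.519), and Shtn1 (0.527). For Nrp1 they were the cytoskeletal linker gene Dst (0.206), the galactose mutarotase gene Galm (0.267) and the splicing factor gene Hnrnpll (0.325). For Izumo1r they were the nuclear receptor gene Rora (0.323), Lypd1 (0.338) and Paqr8 (0.367). Nrp1 had closer neighbours than Rnf128 on this scale.

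**Figure D5:**
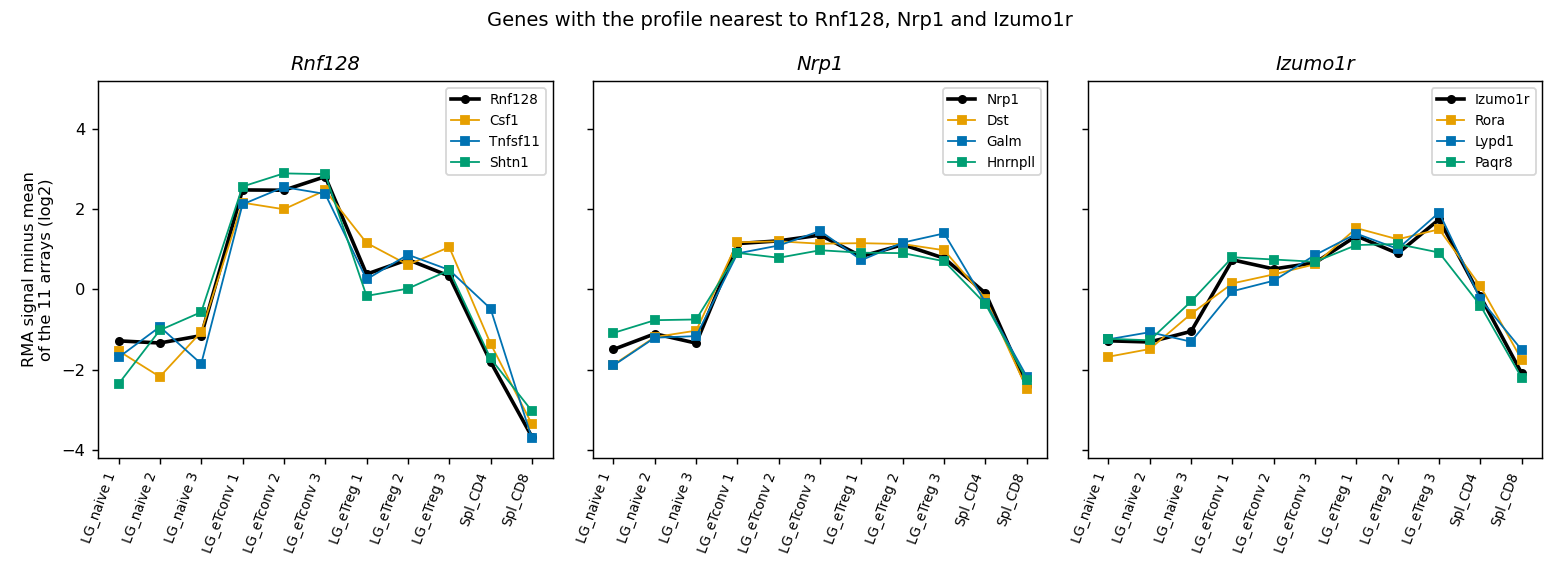
Profiles of Rnf128, Nrp1 and Izumo1r with the 3 nearest genes of each (x axis: the 11 arrays, whose order carries no sequence; y axis: RMA signal minus the gene's mean over the arrays, log2). Rnf128 and its neighbours peak in LG_eTconv, and Izumo1r and Rora in LG_eTreg.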

How the data were processed

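The deposited table holds log2 values (base inferred). The authors' step was RMA, run in Partek, as named per the submitters' processing notes without versions. Of 45141 probe sets, 104 controls were left out. Symbols came from GEO's platform annotation, where 551 probe sets had several and 15588 had none listed. A gene was represented by its probe set of highest mean signal across the 9 gland arrays, and all probe sets of the 10 genes were also tested. Dim genes were kept. Group means of the 9 gland arrays were fitted in limma 3.58.1 under R 4.3.3, with 6 residual degrees of freedom, empirical Bayes moderation and two-sided tests. For groups with no array above background, "at least N-fold" was computed against the limits. The method was tested on simulated data. The members and lists were chosen with earlier results of these data known. Of each list, up to 4 called genes with the largest differences were eligible to be named, and some others, such as Ndfip1, Smurf1, Egr2 and Egr3, were named outside this rule. Alternatives varied the probe set rule, scaling, filters, the fit and the arrays.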

Additional observations from a re-analysis of the deposited data

How the results depend on the processing

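Tests of the 10 genes were repeated under 20 alternatives, 9 of which left out 1 array each. Of 13 called results 10 were called under all 20, and of 17 results that were not called 14 were called under none. The exceptions were Cbl in LG_eTconv minus LG_naive and in LG_eTreg minus LG_eTconv, Dgkz in LG_eTconv minus LG_naive, and, newly called, Dgka in LG_eTconv minus LG_naive, Dgkz and Izumo1r in LG_eTreg minus LG_eTconv. The members called in LG_eTreg minus LG_eTconv numbered 1 instead of 2 with the mean of a gene's probe sets, and also without LG_naive 1, LG_eTconv 1 and LG_eTreg 3; the cause was not tested. With 1 array left out, genes called ranged from 1770 to 2414 (LG_eTconv minus LG_naive), 1512 to 1845 (LG_eTreg minus LG_naive) and 683 to 969 (LG_eTreg minus LG_eTconv), members called from 6 to 7, at 5, and from 2 to 3, and member probe sets called from 8 to 10, 7 to 8 and 3 to 4.

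Among the members, signs turned only in differences that were not called. Cblb in LG_eTconv minus LG_naive became 0.0054 with arrays centred on their median, 0.00048 with array weights, 0.015 without the 3 arrays, and ranged from −0.070 to 0.060 with 1 array left out (0.060 without LG_naive 1, 0.035 without LG_eTconv 3). Ndrg1 in the same comparison became −0.0011 without LG_naive 1 and −0.00079 without LG_eTconv 2, with 0.41 as the highest value with 1 array left out. Cbl in LG_eTreg minus LG_naive became −0.34 with the mean of its probe sets, and Itch became 0.033 with centred arrays, 0.067 without LG_naive 1 and 0.15 without LG_eTreg 1 (lowest with 1 array left out −0.095). Egr3 in LG_eTconv minus LG_naive, not called, became −0.12 without the 3 arrays and −0.090 without LG_eTconv 1, and reached 0.27 with 1 array left out. Replicate numbers were not treated as pairs, since no label says that they mark the same mice. Of 9 same-numbered pairs 3 had deviations correlated above 0.1 (range −0.116 to 0.321), and other pairs ranged from −0.263 to 0.211. Same-numbered pairs of LG_eTconv and LG_eTreg gave 0.321, 0.0905 and 0.195, and their differently numbered pairs ran from −0.263 to 0.0196. Pairing of these 2 subsets therefore stays possible. With the replicate block, 2271, 1929 and 906 genes and 6, 5 and 2 members were called in the 3 comparisons, and no call of a member changed. Of 82 called results of other genes, 62 kept their call under every alternative.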
